A study of Rattus norvegicus with 52 samples.

Results

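The comparison described here sets whole liver sections from F344 rats given clofibric acid (CA) at 0.54% beside whole liver sections from untreated F344 rats. Arrays were chosen by their source label, which names entire sections and the dose, and gave 6 arrays at 0.54% CA and 8 control arrays, 14 of the 52 arrays of the series. A further 8 entire-section arrays at 0.29% CA entered the same model and were used to ask where the higher dose differed from the lower. Stained sections, with 8 control arrays and 5 at 0.54% CA, had their own controls and served for 1 comparison of the drug effect between preparations. The title of the series says that it compares whole with laser-captured liver. The strain F344 is an inbred rat, and no group carries a transgene or a deletion in the labels. The labels do not state route, length of treatment, sex, age or whether each array came from its own rat. The p-values therefore measure the spread between these samples, part of which may be technical.

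Clofibric acid is the active form of the fibrate drug clofibrate. Fibrates bind the nuclear receptor PPARα, which pairs with RXR on DNA elements made of a repeated half-site and raises genes of fatty acid uptake and oxidation. In rodent liver the response is known for peroxisome proliferation and for the induction of peroxisomal β-oxidation enzymes and of the CYP4A fatty acid hydroxylases.

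Total RNA was hybridized to 1-colour oligonucleotide arrays, and each of the 8740 non-control probe sets has 1 deposited intensity per array in arbitrary units. The files give probe set IDs and no gene names, and no table used here pairs the GenBank accessions inside those IDs with genes. Names below were assigned to 553 tested probe sets from recalled knowledge of the GenBank records behind the IDs and were not checked against a table. A name may therefore be wrong, and the measurement belongs to the probe set printed beside it. They cover 375 genes and 11 families whose near-identical members the probes may share. For 31 genes, 2 or more accessions with a mean intensity above 66 carried the same name. Their brightest probe sets had the same call for 23 genes, were called for 1 accession and not for another for 8, and had opposite calls for 0.

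Some arrays stood apart. In the control group, array 7 had a GAPDH 3′/5′ signal ratio of 6.25 against 1.25 to 1.92 on the other 7, and at 0.54% CA array 5 had 6.49 against 1.25 to 2.37. A high ratio means less signal from the 5′ end of the transcript. Array 6 at 0.54% CA had the lowest 2% trimmed mean intensity, 91.9, and the lowest median correlation with its own group, 0.923. None of 7 quality measures passed a two-sided exact permutation test between the groups with Benjamini-Hochberg adjustment, the smallest adjusted p being 0.34 for the mean intensity. Without the entire-section arrays with a GAPDH ratio above 4 the count of called probe sets was 1193, and without array 6 at 0.54% CA as well it was 1267.

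Of 7804 probe sets tested, 1236 changed at 0.54% CA, 15.8% of them, with 632 higher (8.10%) and 604 lower (7.74%) than in control liver. A probe set was called when the limma test gave a Benjamini-Hochberg adjusted p under 0.05. Changes are log2 differences of quantile-normalized intensity after raising values below 4, the floor, to it. For a gene near the floor in 1 group the log2 change depends on that floor. Among the called probe sets 291 rose and 267 fell by at least 2-fold, and the median size of the called changes was 0.91 on the log2 scale. By deposited intensity, before normalization, all 6 arrays at 0.54% CA lay above all 8 controls for 218 probe sets (2.79%) and below all of them for 232 (2.97%). Groups called separate or overlapping below are so by deposited intensity, and normalized values can differ in this. Named probe sets held 263 of the calls, 21.3%, and 47.6% of the named ones were called, so the named genes as a whole already exceed the 15.8% of all tested. A list whose share is above 15.8% is therefore not by itself particular. Of the 263 named calls, 67 were lost when the deposited scale, with each array centred on its median, replaced quantile normalization.

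**Figure D1:**
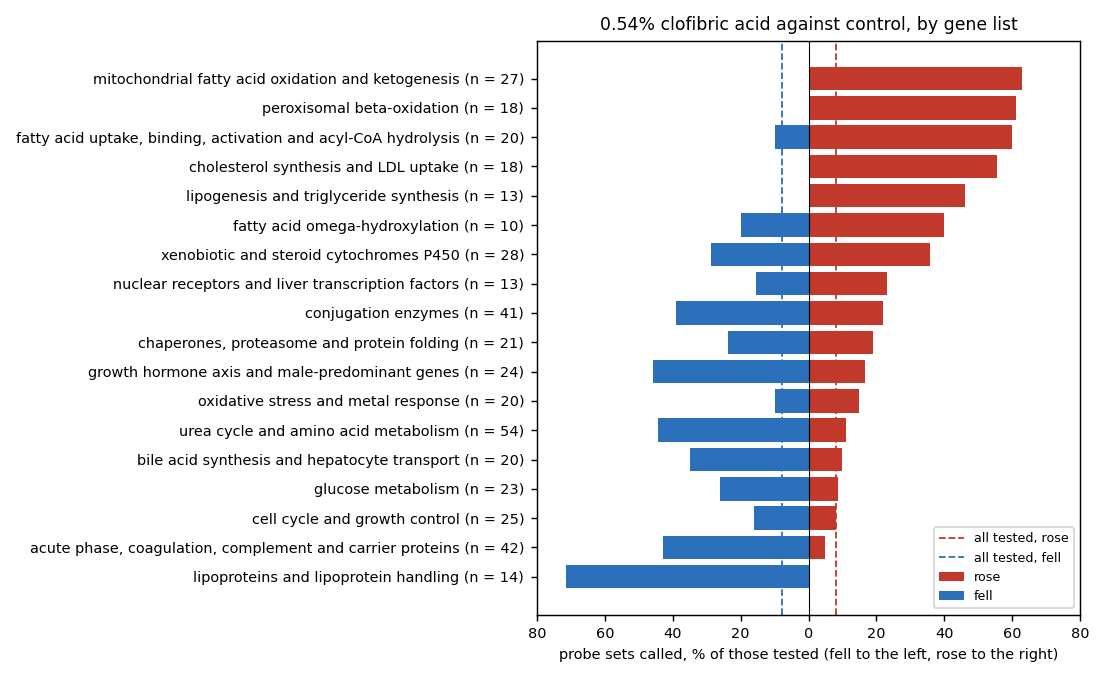
Share of each list's tested probe sets called at 0.54% CA against control, in percent, with risen probe sets to the right in red and fallen ones to the left in blue. n is the number of probe sets, and dashed lines mark the shares over all 7804 tested, 8.10% and 7.74%. Fatty acid and cholesterol lists lie to the right, lipoprotein, plasma protein and amino acid lists to the left.

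PPARα and its partner bind repeats of AGGTCA spaced by 1 base. AGGTCA, any base and AGGTCA again, read as 1 motif, was searched on both strands in the 250 bases before each RefSeq gene start (GRCr8), with at most 1 of the 12 fixed letters different. Of 33469 such windows 123 held a match, 0.368%. Of 307 windows of 287 named genes 3 did, 0.977%, and these 3 are printed here because they are the named promoters that carry the element most like the known one, with the matching letters in capitals.
Fabp1, chr4:104749090-104749339, plus strand: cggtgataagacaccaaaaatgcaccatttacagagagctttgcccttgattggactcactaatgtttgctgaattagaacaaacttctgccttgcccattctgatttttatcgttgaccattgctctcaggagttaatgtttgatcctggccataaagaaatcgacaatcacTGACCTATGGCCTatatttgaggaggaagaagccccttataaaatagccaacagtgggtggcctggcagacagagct
Acadvl, chr10:55236706-55236955, minus strand: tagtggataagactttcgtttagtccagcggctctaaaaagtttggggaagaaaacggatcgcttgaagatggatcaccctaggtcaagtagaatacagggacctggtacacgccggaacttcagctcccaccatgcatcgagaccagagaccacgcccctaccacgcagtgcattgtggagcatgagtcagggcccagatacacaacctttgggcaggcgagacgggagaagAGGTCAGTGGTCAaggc
Gys2, chr4:177137237-177137486, minus strand: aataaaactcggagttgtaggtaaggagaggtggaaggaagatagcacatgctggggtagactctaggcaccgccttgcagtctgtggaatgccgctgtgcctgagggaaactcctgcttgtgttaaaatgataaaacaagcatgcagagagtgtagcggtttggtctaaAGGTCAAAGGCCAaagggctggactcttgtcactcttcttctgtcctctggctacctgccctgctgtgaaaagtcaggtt
The match lies in the opposite orientation to Fabp1, which encodes liver fatty acid binding protein, and starts 77 bases before its start. Fabp1 (v01235_at) rose by 0.81 ± 0.08 (SE, adjusted p = 1.9e-07), from a control median of 3680 to 4618, though on the deposited scale the rise was 0.42 with an adjusted p of 0.14. Acadvl (d30647_at), the mitochondrial very long chain acyl-CoA dehydrogenase, changed by 0.21 (adjusted p = 0.64). Gys2 (j05446_at), the liver glycogen synthase, changed by -0.02 (adjusted p = 0.99). A match is a description of letters in this window and shows no binding.

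Peroxisomal β-oxidation genes rose together. Of 18 probe sets for 14 genes 11 rose and 0 fell, 61.1% called, with a median log2 change of 0.72 against -0.01 over all tested. Peroxisomal oxidation shortens long fatty acids in steps that end with a bifunctional hydratase and dehydrogenase and a thiolase, and a gene of each of the last steps rose. Acaa1a (j02749_at), the peroxisomal thiolase, had intensities of 117 to 311 in control liver with a median of 165.5, and of 3481 to 5736 with a median of 4700 at 0.54% CA. No array overlapped, and the change was 5.38 ± 0.17 (SE, adjusted p = 1.6e-15). Ehhadh (k03249_at), the hydratase and dehydrogenase, went from a median of 520.5 (372 to 839) to 3974 (3224 to 4578), a change of 3.37 ± 0.15 (adjusted p = 1.8e-13). Its groups too were fully separate.

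Crot (u26033_at), which passes shortened acyl groups to carnitine, rose by 2.39 ± 0.17, from a median of 166.5 to 934. Ech1 (u08976_at), an isomerase of unsaturated acyl-CoA, rose by 1.61 ± 0.11, from 1164 to 2832. Decr2 (af044574_g_at), the peroxisomal dienoyl-CoA reductase, rose by 0.62 ± 0.11 with overlapping groups, 370 to 666 in control liver and 628 to 885 at 0.54% CA. Slc27a2 (d85100_at), a very long chain acyl-CoA synthetase, rose by 0.36 (adjusted p = 0.0032), a call lost on the deposited scale (0.26, adjusted p = 0.38). Hsd17b4 was called on 1 of its 2 probe sets, at 0.26 on s83279_at and 0.19 on s83279_g_at, and the call was lost on the deposited scale (adjusted p = 0.23). The transporter Abcd3 (d90038_at, 0.82, adjusted p = 0.056), Amacr (u89905_at, 0.43), the proliferation factor Pex11a (aj224120_at, 0.25), Pxmp2 (x70223_at, -0.20), Scp2 (m62763complete_seq_at, -0.22) and the branched-chain oxidase Acox2 (x95189_at, -0.27) did not pass the test.

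Mitochondrial fatty acid oxidation rose as well, with 17 of 27 probe sets for 17 genes higher and 0 lower (63.0%) and a median change of 0.88. The carnitine shuttle brings long-chain fatty acids into the mitochondrion, and its muscle-type gene changed most. Cpt1b (d43623_g_at) was at the floor or close to it on control arrays, from -2 to 30 with a median of 3.5, and was 190 to 370 at 0.54% CA with a median of 334.5, a change of 5.40 ± 0.31 (adjusted p = 3.2e-11). Its other probe sets gave 2.32 (d43623_at), 1.76 (af063302mrna#3_s_at) and, on one with medians under the floor in both groups, 0.50 without a call. The liver-type Cpt1a (l07736_at) went from 656.5 to 1018, a change of 0.54 that did not pass (adjusted p = 0.06), and Cpt2 (j05470_at) rose by 0.44, a call lost on the deposited scale (adjusted p = 0.062).

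Inside the mitochondrion Eci1 (d00729_g_at), an enoyl-CoA isomerase, rose by 2.47 ± 0.14, from a median of 1159 (1053 to 1819) to 4698 (3617 to 6137). Acat1 (d00512_g_at), the acetoacetyl-CoA thiolase, rose by 1.87 ± 0.08, from 476 to 1674. Both groups were separate for each of these. The other Eci1 probe set, d00729_at, changed by -0.01 and was not called, so the Eci1 probe sets disagree. Hadhb (d16479_at) and Hadha (d16478_at), the subunits of the trifunctional protein, rose by 1.56 ± 0.14 and 0.95. Acadl (j05029_s_at), the long chain acyl-CoA dehydrogenase, rose by 1.08 ± 0.14 and Acadm (j02791_at), the medium chain one, by 0.39 (adjusted p on the deposited scale 0.24), while the short chain Acads (j05030_at, 0.27) was not called. Acaa2 (x05341_at), the mitochondrial thiolase, rose from a median of 2330 to 3828 (adjusted p = 9.0e-05). Pdk2 (u10357_g_at), a kinase that shuts pyruvate dehydrogenase, rose by 0.65. Decr1, the mitochondrial dienoyl-CoA reductase, rose by 2.14 on d00569_at. On the brighter d00569_g_at the rise was 1.13 ± 0.32 (adjusted p = 0.016), with array 3 at 424 and the other 5 arrays at 1910 or more, and it missed the threshold without the arrays of high GAPDH ratio (1.04, adjusted p = 0.061).

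Genes that bring fatty acids into the cell, bind them and release them from coenzyme A showed the widest range. Of 20 probe sets for 14 genes 12 rose and 2 fell (70.0%), with a median change of 2.03. Acot1 (ab010428_s_at), the cytosolic acyl-CoA thioesterase, was -4 to 13 on control arrays and 239 to 642 at 0.54% CA, a change of 6.42 ± 0.19 (adjusted p = 5.1e-16). Another probe set given the same name, y09332cds_s_at, changed by -0.27 (adjusted p = 0.48), from 78.5 to 63, so the probe sets given this name disagree. Acot2 (y09333_g_at), the mitochondrial thioesterase, rose by 5.25 ± 0.70, from a median of -9 (-82 to 6) to 382 (-56 to 492), with overlapping groups. Fabp3 (j02773_at), the heart-type fatty acid binding protein, was 4 to 17 in control liver and 186 to 432 at 0.54% CA, a change of 5.22 ± 0.24. These genes were at or near the floor in control liver.

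Cd36 (af072411_g_at), a fatty acid translocase of the plasma membrane, rose by 3.69 ± 0.19, from a median of 48.5 (32 to 74) to 673.5 (368 to 762). Lpl (l03294_g_at), the lipase that frees fatty acids from lipoproteins, rose by 3.29 ± 0.27, from 26 to 231.5. Acsl3 (d30666_at), an acyl-CoA synthetase, rose by 2.17 ± 0.14, whereas its relatives Acsl1 (d90109_at, 0.31), Acsl4 (d85189_at, 0.38) and Acsl5 (ab012933_g_at, -0.32) were not called. Fabp5 (s69874_s_at) rose by 2.13 ± 0.19 and Fabp7 (u02096_at) by 1.93, while the intestinal Fabp2 (k01180_at) stayed near the floor in both groups, 8.5 and 5. The probe sets that fell were both of Lipa, the lysosomal acid lipase, at -0.64 on s81497_i_at and -0.59 on s81497_s_at, calls that were lost on the deposited scale (adjusted p = 0.07 and 0.14).

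**Figure D2:**
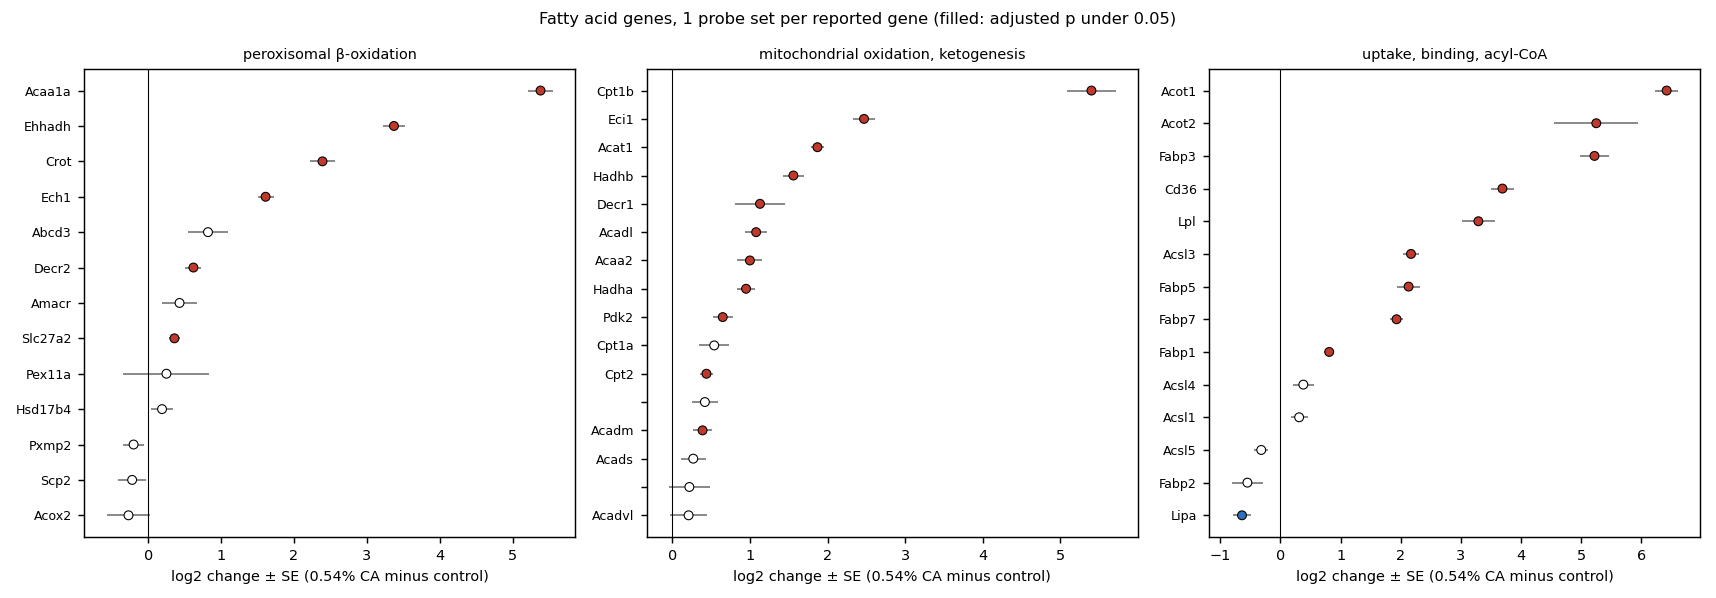
Log2 change at 0.54% CA minus control with its standard error for 1 probe set per reported gene, in 3 panels by role. Filled points have an adjusted p under 0.05, red for a rise and blue for a fall, and only genes described in the text are labelled. The largest rises are Acaa1a at 5.38, Cpt1b at 5.40 and Acot1 at 6.42, and Lipa is the only filled point below 0.

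Microsomal ω-hydroxylation is the other entry to fatty acid breakdown, and its genes moved both ways. Of 10 probe sets in its list, which also holds the epoxygenase Cyp2j3, 4 rose and 2 fell (60%), with a median of 0.18. Cyp4a1 (m57718mrna_s_at), the fatty acid ω-hydroxylase, rose by 2.39 ± 0.17, from a median of 851.5 (555 to 1620) to 3570 (2990 to 4483), and m14972_i_at gave 2.62. A further Cyp4a probe set whose members cannot be told apart (x07259cds_s_at) rose by 3.26. Cyp2j3 (u39943_s_at), an arachidonic acid epoxygenase, rose by 1.29 ± 0.17. In the other direction, Cyp4a8 (m37828_at) fell by 1.09 ± 0.20, from 58 to 35, and Cyp4f1 (m94548_at), of the 4F subfamily, fell by 0.75 ± 0.13, from 1865 to 1221. Cyp4a3 (m33936_s_at), at 3684 already in control liver, changed by 0.22 without a call.

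Fatty acid synthesis genes rose on 6 of 13 probe sets and fell on 0 (46.2%), with a median of 0.58. Me1 (m26594_at), malic enzyme, which supplies NADPH, was 10 to 33 in control liver and 245 to 583 at 0.54% CA, a change of 4.58 ± 0.21 (adjusted p = 4.1e-13). Scd (j02585_at), the stearoyl-CoA desaturase, rose by 2.46 ± 0.15, from a median of 639.5 (406 to 1021) to 2844 (2674 to 3315). Thrsp (k01934mrna#2_at), a thyroid hormone responsive lipogenic protein, rose by 1.16 ± 0.12 and Fasn (m76767_s_at), fatty acid synthase, by 0.79 ± 0.16 at low signal, 41.5 to 79. Scd2 rose on 2 of its 3 probe sets, by 3.60 ± 0.36 on u67995_s_at, a size that ran from 1.29 to 3.87 under the alternatives tried. Acly (j05210_g_at, 0.21) and Srebf1 (l16995_at, 0.31) were not called.

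Cholesterol synthesis genes rose on 10 of 18 probe sets and fell on 0 (55.6%), with a median of 0.90. Fdps (m89945mrna_at), farnesyl diphosphate synthase, was 150 to 198 in control liver and 706 to 1038 at 0.54% CA, a change of 2.37 ± 0.19 (adjusted p = 4.3e-09). Insig1 (l13619_at), which holds the sterol sensor in the endoplasmic reticulum, rose by 1.66 ± 0.35, from 286.5 to 668.5. Fdft1 (m95591_g_at), squalene synthase, rose by 1.47 ± 0.34, Cyp51 (u17697_s_at), a sterol demethylase, by 0.96 ± 0.23 and Hmgcs1 (x52625_at), the cytosolic HMG-CoA synthase, by 0.64 ± 0.18 (adjusted p on the deposited scale 0.062). Msmo1 (e12625cds_at) rose by 2.93 ± 0.52 and Sqle (d37920_at) by 1.66, both near the floor in controls.

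Lipoprotein genes fell. Of 14 probe sets for 10 genes 10 fell and 0 rose (71.4%), with a median of -0.73. Apoa4 (m00002_at), an apolipoprotein of triglyceride-rich particles and HDL, fell furthest of all named genes, from a median of 1291 (899 to 1636) to 13 (8 to 29), a change of -6.74 ± 0.40 (adjusted p = 3.7e-11). Apoc3 (j02596cds_at), which slows the clearance of triglyceride-rich particles, fell by 1.34 ± 0.10, from 7968 (5950 to 9673) to 3436 (2306 to 4000). Apoa1 (j02597cds_s_at), the main protein of HDL, fell by 1.10 ± 0.13, from 3440 (3290 to 3989) to 1761 (1392 to 2619). All 3 had separate groups.

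Lcat (x54096_at), which esterifies cholesterol on HDL, fell by 1.21 ± 0.13, from 1842 to 866.5. Scarb1 (d89655_at), the HDL receptor, fell by 0.97 ± 0.14 and Lipc (m16235_at), hepatic lipase, by 0.49 ± 0.10. Pon1 (u94856_at), a paraoxonase carried on HDL, fell by 0.28 (adjusted p = 0.041). The calls of Lipc and Pon1 were lost on the deposited scale. Apob (m27440_at, -0.17), Apoe (x04979_at, 0.04) and Apoc1 (x15512_at) were not called. The result for bright probe sets moved with the scaling. For the 103 probe sets with a control mean above 3000 the median change was -0.13 after quantile normalization and -0.36 on the deposited scale, with 10 higher and 36 lower calls against 1 and 32. Over all 7804 the medians were -0.01 and 0.01. The deposited medians of Apoe were 9908 and 6569.

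Secreted plasma proteins, the main export of the hepatocyte, fell on 18 of 42 probe sets and rose on 2 (47.6%), with a median of -0.25. Complement genes were among the falls. C1s (d88250_at), a protease of the classical pathway, fell by 1.89 ± 0.21, from 821 (670 to 881) to 274.5 (111 to 310), and Mbl2 (x05023_at), mannose-binding lectin, by 1.70 ± 0.29. C3 (m29866_s_at) fell by 0.61, C4bpa (z50051_at) by 0.84 and C8b (u20194_g_at) by 0.73. Among other secreted proteins Agt (m12112mrna#3_s_at), angiotensinogen, fell by 1.03 ± 0.10, Itih3 (x83231_at), an inter-α-trypsin inhibitor chain, by 1.02 ± 0.09 and Vtn (u44845_at), vitronectin, by 0.99 ± 0.10, each with separate groups. The clotting protein genes Fgb (u05675_at) and Proc (x64336_at) fell by 0.21 and 0.52, calls lost on the deposited scale, and F2 (m81397_at, -0.24) and F9 (m26247_at, -0.50) were not called. Fga, the fibrinogen alpha chain, fell by 0.93 ± 0.19 on x86561cds#2_at, a call kept on the deposited scale (adjusted p = 0.0034), but its probe sets m35601_at and m35601_g_at, both at -0.07, were not called.

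Serpina7 (m63991_at), the thyroxine-binding globulin, went the other way. It was 0 to 7 in control liver, at or near the floor, and 43 to 153 at 0.54% CA, a change of 3.86 ± 0.28 (adjusted p = 1.3e-09). The other rise, Rbp4 (k03045cds_s_at, 0.39), turned to -0.10 on the deposited scale, and its further probe sets gave -0.22 and -0.12. Of the acute phase proteins Hp (k01933_at), haptoglobin, fell by 0.36 ± 0.09 (adjusted p = 0.0079), and A2m (x13983mrna_at, 0.02), Orm1 (v01216_at, -0.17) and Cp (l33869_at, 0.12) were not called.

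Nitrogen and amino acid metabolism was lower on 24 of 54 probe sets and higher on 6 (55.6%), with a median of -0.38. Oat (m93297cds_at), ornithine aminotransferase, fell from a median of 922.5 (432 to 1064) to 52.5 (37 to 74), a change of -4.17 ± 0.21 (adjusted p = 3.8e-12). Sds (j03863_at), serine dehydratase, fell by 3.36 ± 0.69, from 1196 (489 to 1833) to 162 (41 to 382). The second Sds accession (x13119cds_s_at) gave -3.78. Hal (m58308_at), histidine ammonia-lyase, fell by 1.47 ± 0.16 and Gls2 (j05499_at), the liver glutaminase, by 1.34 ± 0.12. Cbs (m88347_s_at), cystathionine β-synthase, fell from a median of 599 to 258.5 (adjusted p = 1.0e-07). Ddc (m84648mrna_s_at), which decarboxylates aromatic amino acids, fell by 2.20 ± 0.50 at low signal.

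Urea cycle genes differed among themselves. Asl (d13978_s_at), argininosuccinate lyase, fell by 1.32, Ass1 (x12459_at), argininosuccinate synthase, by 0.83 and Arg1 (j02720_at), arginase, by 0.59 (adjusted p = 0.042), while the mitochondrial Cps1 (m12335expandedcds_s_at, -0.27) and Otc (m11266_at, 0.40) were not called. Of the transaminases Got1 (j04171_at) fell by 1.13, Gpt (d10354_s_at) by 0.70 and Agxt (x06357cds_s_at) by 0.87, while Got2 (m18467_at, 0.24) was not called. Aadat, the kynurenine aminotransferase, rose by 0.42 on z50144_at and was not called on z50144_g_at (0.24). On the deposited scale the calls of Arg1 (adjusted p = 0.09), Gpt (adjusted p = 0.073) and Aadat on z50144_at (adjusted p = 0.12) were lost. Among the rises, Asns (u07201_at), asparagine synthetase, rose by 1.56 ± 0.21, from 36.5 (19 to 55) to 102 (87 to 116), and Csad (m64755_at), an enzyme of taurine synthesis, rose by 1.14 ± 0.14.

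**Figure D3:**
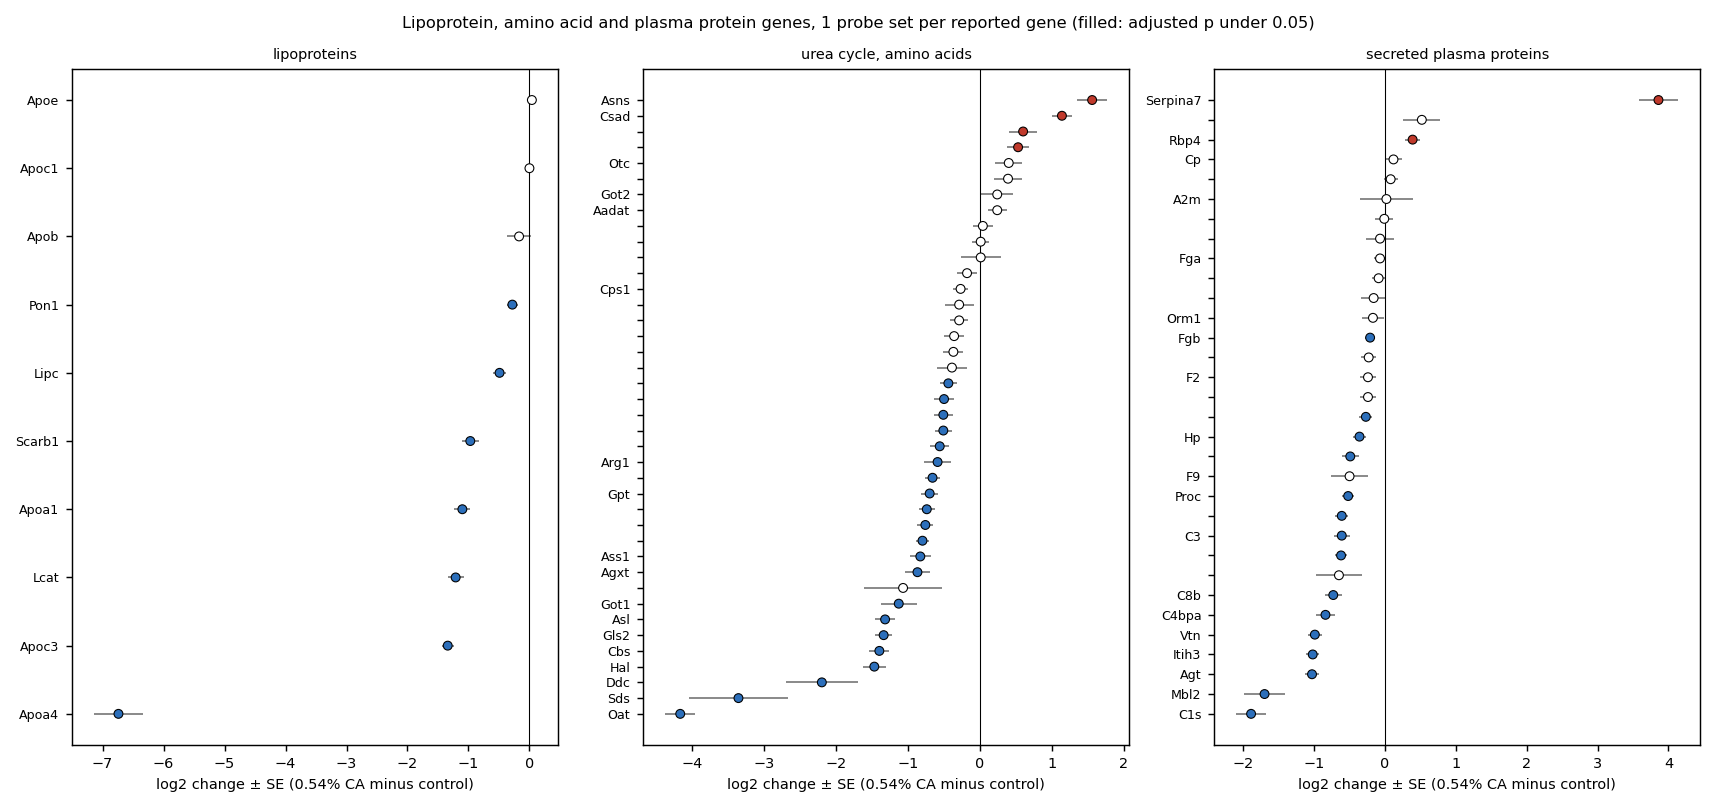
Log2 change at 0.54% CA minus control with its standard error for 1 probe set per gene in lipoprotein, amino acid and plasma protein lists. Filled points have an adjusted p under 0.05, blue for a fall and red for a rise, and only genes described in the text are labelled. Apoa4 at -6.74 and Oat at -4.17 lie furthest to the left, and Serpina7 at 3.86 furthest to the right.

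Glucose genes rose on 2 of 23 probe sets and fell on 6 (34.8%), with a median of -0.07. Pfkfb1 (x15580complete_seq_s_at), which makes and breaks down an activator of glycolysis, rose by 1.13 ± 0.11, from 138 to 314.5. Pck1 (k03243mrna_s_at), the cytosolic gluconeogenic carboxykinase, fell by 1.07 ± 0.32 (adjusted p = 0.025), from 2867 (1048 to 3252) to 1172 (813 to 1941), with overlapping groups. Gcgr (m96674_at), the glucagon receptor, fell by 0.82 ± 0.22, Sord (x74593_at), sorbitol dehydrogenase, by 0.51 ± 0.16, Pc (u32314_at), pyruvate carboxylase, by 0.45 ± 0.14 and Slc37a4 (af080468_g_at), the glucose phosphate carrier, by 0.42 ± 0.07. On the deposited scale only 1 of the 6 falls in this list kept its call. G6pc1 (l37333_s_at, -0.21) was not called.

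Drug- and steroid-metabolizing P450 genes moved both ways, with 10 of 28 probe sets higher and 8 lower (64.3%) and a median of -0.01. All 5 probe sets of the Cyp2b family, known for induction by phenobarbital, rose by 1.36 to 2.13, and Cyp2b15 (d17349cds_f_at) rose by 1.33 ± 0.17. These probe sets may share transcripts. Cyp17a1 (m21208mrna_s_at), the steroid hydroxylase and lyase, was 3 to 35 in control liver and 126 to 334 at 0.54% CA, a change of 3.75 ± 0.33. Cyp3a9 (u46118_at) fell by 2.94 ± 0.28, from 322 (198 to 604) to 46.5 (25 to 72). Cyp2c11 (j02657_s_at), the main male-specific P450 of rat liver, fell by 1.76 ± 0.15, from 3447 (2541 to 4024) to 1188 (1016 to 1318). Cyp1a2 (m26127_s_at), the arylamine hydroxylase, fell by 1.52 ± 0.11 and Fmo1 (m84719_at), a flavin monooxygenase, by 1.46 ± 0.24. Cyp2e1 (m20131cds_s_at, -0.05) and the reductase Por (m10068mrna_s_at, 0.04) were not called.

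The list of conjugation enzymes also held epoxide hydrolases and an aldehyde reductase, which do not conjugate. In this list 16 of 41 probe sets fell and 9 rose (61.0%), with a median of -0.27, so the rises are not all of conjugation enzymes. All 5 Sult2a probe sets, for hydroxysteroid sulfotransferases, were lower by 0.66 to 1.23, though d14989_f_at (adjusted p = 0.074) and m33329_f_at (adjusted p = 0.14) lost their call on the deposited scale. Sult1e1 (m86758_at), the estrogen sulfotransferase, fell by 0.97 ± 0.13. Sult1a1 (l19998_g_at), a phenol sulfotransferase, fell by 0.45, and Sult1b1 (d89375_s_at, 0.08) was not called. Gstm2 (j02592_s_at) and Gstm1 (x04229cds_s_at), glutathione transferases of the mu class, fell by 0.95 ± 0.17 and 0.52 ± 0.14. The alpha class split, with k00136mrna_at lower by 1.43 and s82820mrna_s_at higher by 3.58, from a median of 7.5 to 112.5. Epoxide hydrolases rose, Ephx1 (m26125_at) by 0.93 ± 0.09 and Ephx2 (x60328_g_at), the soluble form, by 1.75 ± 0.43, and the aflatoxin aldehyde reductase Akr7a3 (af045464_s_at) rose by 0.77 ± 0.12. Ugt2b probe sets fell on 4 of 6, while 3 of 4 Ugt1a probe sets rose, of which j02612mrna_s_at (adjusted p = 0.13) and j05132_s_at (adjusted p = 0.1) lost their call on the deposited scale.

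Bile acid and transport genes fell on 7 of 20 probe sets and rose on 2 (45.0%), with a median of -0.23. Slco1a4 (u88036_at), a sinusoidal organic anion carrier, fell by 0.75 ± 0.12, from 925.5 to 620.5, Abcc6 (ab010466_s_at) by 0.60 ± 0.12 and Abcb4 (l15079mrna_s_at), the phospholipid export pump, by 0.47 ± 0.13. Nr0b2 (d86745cds_s_at), a repressor of bile acid synthesis, rose by 0.61 ± 0.17 with overlapping groups, and was not called under 7 of the alternatives tried. Its probe set d86580_at gave 0.66, a call lost on the deposited scale (adjusted p = 0.13), and d86745exon_s_at gave 0.18 without a call. Nr1h4 (u18374_at), the bile acid receptor, fell by 0.47 ± 0.16 (adjusted p = 0.046). Cyp7a1 (j05460_s_at), the rate-limiting enzyme of bile acid synthesis, changed by -0.39 (adjusted p = 0.55). The calls of Abcb4 and Nr1h4 were lost on the deposited scale. The count for this list was 4 on the deposited scale and also 4 without the arrays of high GAPDH ratio and array 6.

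Growth hormone axis and male-predominant genes fell on 11 of 24 probe sets and rose on 4 (62.5%), with a median of -0.63. The deposited scale gave 10 falls and 2 rises. Of the 4 genes that rose only Igfbp1 and Igfbp2 are described here, so the falls below do not show that every male-predominant gene fell. A probe set of the Mup family (j00738_s_at), the α2u-globulins secreted by male rat liver, fell by 3.55, from 3740 to 355.5, while another of that family (m27434_s_at) changed by -0.22 (adjusted p = 0.17). Igfals (s46785_g_at), the acid-labile subunit that holds IGF-I in plasma, fell by 1.38 ± 0.10, from 649.5 (554 to 685) to 277 (155 to 343). Rgn (d31662exon#4_s_at), regucalcin, fell by 1.16 ± 0.14, Srd5a1 (j05035_g_at), steroid 5α-reductase, by 1.16 ± 0.28 and Igf1 (m15481_g_at) by 0.43 (adjusted p = 0.019, and 0.065 on the deposited scale). Igf1 also fell on d00698_s_at, by 0.88 (adjusted p = 0.0078), a call kept on the deposited scale (adjusted p = 0.03). Its probe sets m15481_at (-0.7), m81183exon_utr_at (-0.36) and m81183exon_utr_g_at (-0.94) were lower without a call. Igfbp1 (m58634_at), an IGF binding protein, rose by 2.20 ± 0.44, from 123 (53 to 279) to 580 (190 to 1023), with overlapping groups. Igfbp2 (j04486_at) rose by 2.99 ± 0.56, from 7.5 (-17 to 39) to 93 (20 to 216).

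Of the oxidative stress list 3 of 20 probe sets rose and 2 fell (25%). Cat (m11670_at), the peroxisomal catalase that removes hydrogen peroxide, rose by 0.46 ± 0.15 (adjusted p = 0.039), from 1524 (1074 to 1992) to 1947 (1755 to 2256), and it was not called under 13 of the alternatives tried. Gpx1 (x12367cds_s_at), glutathione peroxidase, fell by 0.45 ± 0.11, Gss (l38615_g_at) rose by 1.97 at low signal, Gclm rose on 1 probe set by 0.50 and Uox (j03959_g_at) fell by 0.83 on the dimmer of its 2. In the chaperone list, with 4 higher and 5 lower of 21, the mitochondrial Hspa9 (s78556_g_at) and Hspd1 (x54793_at) rose by 1.28 ± 0.11 and 0.73 ± 0.11, and the proteasome subunit Psma3 (d90258_s_at) by 0.58 ± 0.12. The endoplasmic reticulum isomerases P4hb (x02918_at), Pdia3 (x12355_s_at) and Pdia4 (m86870_at) fell by 0.60 ± 0.19, 0.54 ± 0.14 and 0.46 ± 0.11. These 3 calls and that of Psma3 were lost on the deposited scale.

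Cell cycle genes, with 2 rises and 4 falls in 25 probe sets (24%), were mostly dim. Ccnb1 (x64589_at), cyclin B1, was 21 to 80 in control liver and -20 to 22 at 0.54% CA, a change of -3.01 ± 0.45, while Pcna (m24604_at, 0.01) and Ccnd1 (d14014_at, 0.09) were not called. Egfr (m37394_at) fell by 0.98 ± 0.19, the antiproliferative Btg2 (m60921_at) by 0.61 ± 0.11 and Btg1 (l26268_at) by 0.37 ± 0.11, the last a call lost on the deposited scale. Myc (y00396mrna_g_at) rose by 1.34 ± 0.33, from a median of 14.5 to 27.5. Ppara (m88592_at) itself had medians of 7.5 and 4.5 and Rxra (l06482_at) of -26.5 and -4, too close to the floor to compare. Of the other transcription factors Cebpb (x60769mrna_at) fell by 0.58 ± 0.17 (adjusted p on the deposited scale 0.087) and Foxa2 (l09647_at) rose by 0.78 ± 0.19. Genes outside the lists that fell included Dusp1 (s81478_s_at), a phosphatase of MAP kinases, at -3.03 ± 0.58 and Dio1 (x57999cds_at), the hepatic deiodinase, at -3.44 ± 0.51. The size for Dio1 ran from -3.74 to -1.59 under the alternatives tried. Tfrc (m58040_at), the transferrin receptor, fell as well, at -1.80 ± 0.36, and Inhbe (af089825_at), an activin subunit, at -1.54 ± 0.22. Dusp1 was at 44 or less on 5 of the 6 arrays and at 222 on array 1.

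Markers of other cells in the section were followed as well. Hepatocyte markers were bright, with a summed intensity of 33360 to 50170 on control arrays and 22100 to 38400 at 0.54% CA, and 4 of 8 probe sets fell, 2 of them Apoa1. Macrophage and leukocyte markers were lower on 6 of 16 probe sets and higher on 1, and their sum was 2553 to 3717 and 1450 to 2820. Cd14 (af087943_s_at) fell by 0.76 ± 0.14, the Kupffer cell lectin Clec4f (m55532_at) by 0.71 ± 0.13 and RT1-DMb (u31599_g_at) by 1.30 ± 0.41 (adjusted p on the deposited scale 0.052), while Fcgr2b (x73371_at), a receptor for antibody, rose by 1.02 ± 0.23. Globin probe sets of blood cells rose on 3 of 3, by 0.36 to 0.88, of which 1 kept its call on the deposited scale, and the sum of the blood list was 5093 to 8518 and 6802 to 10210. Stellate and fibroblast markers rose on 1 and fell on 2 of 11, with Sparc (y13714_at) higher by 0.88 ± 0.25 and Fn1 (x05834_at) lower by 0.43 ± 0.11. No endothelial (7) or bile duct (3) probe set was called by limma, though Pecam1 (u77697_at) went from 1.01 (adjusted p = 0.056) to 1.14 (adjusted p = 0.046) on the deposited scale, from medians of 6 and 17. Vwf (u50044cds_at), Krt19 (x81449cds_g_at) and Spp1 (m14656_at) were near the floor. In such sections fewer cells of a type and less RNA per cell cannot be told apart, and the part of these shifts in the results above was not tested.

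The higher dose was compared with 0.29% CA in the same fit. Of 7804 probe sets 79 differed, 1.01%, with 37 higher at 0.54% (0.474%) and 42 lower (0.538%). Of these 69 were also called against control, and for 67 of those 69 the 0.54% group lay further from control in the direction of its change. Both contrasts use the same arrays at 0.54% CA, so this agreement is partly built in and does not measure a trend with dose. Uptake and thioesterase genes were among those higher at 0.54% CA. Acot1 had a median of 143.5 at 0.29% and 454 at 0.54%, a difference of 1.55 (adjusted p = 8.6e-05), Fabp3 99.5 and 268.5 (1.47, adjusted p = 0.0026) and Cd36 270.5 and 673.5 (1.29, adjusted p = 0.00081). Among the peroxisomal enzymes Ech1 was higher by 0.46 (adjusted p = 0.046). Acaa1a (0.25, adjusted p = 0.67) and Ehhadh (0.25, adjusted p = 0.57) did not pass, with medians of 4999 and 3638 at 0.29% CA.

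Some secreted and male-predominant genes went further down at the higher dose. Cyp2c11 had medians of 3447, 2338 and 1188 at 0, 0.29 and 0.54% CA, a difference between the doses of -1.15 (adjusted p = 0.00018), Igfals of 649.5, 410 and 277 (-0.73, adjusted p = 0.00047) and Apoa1 of 3440, 2529 and 1761 (-0.66, adjusted p = 0.013). Igfbp2 was at 7.5 and 7 in control liver and at 0.29%, and at 93 at 0.54%, a difference of 3.17 (adjusted p = 0.0053). Fdps was higher by 0.91 at 0.54% than at 0.29% (adjusted p = 0.021). Cyp3a9 ran against the dose, with 17 at 0.29% and 46.5 at 0.54%, a difference of 1.22 (adjusted p = 0.034). Oat (-0.37) and Apoa4 (-1.18, adjusted p = 0.21) did not pass. The number of dose calls ranged from 33 to 118 when 1 array was left out. It was 33 and 41 without arrays 2 and 5 at 0.54% CA, and 47, 47, 45 and 39 without arrays 1 to 4 at 0.29%.

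**Figure D4:**
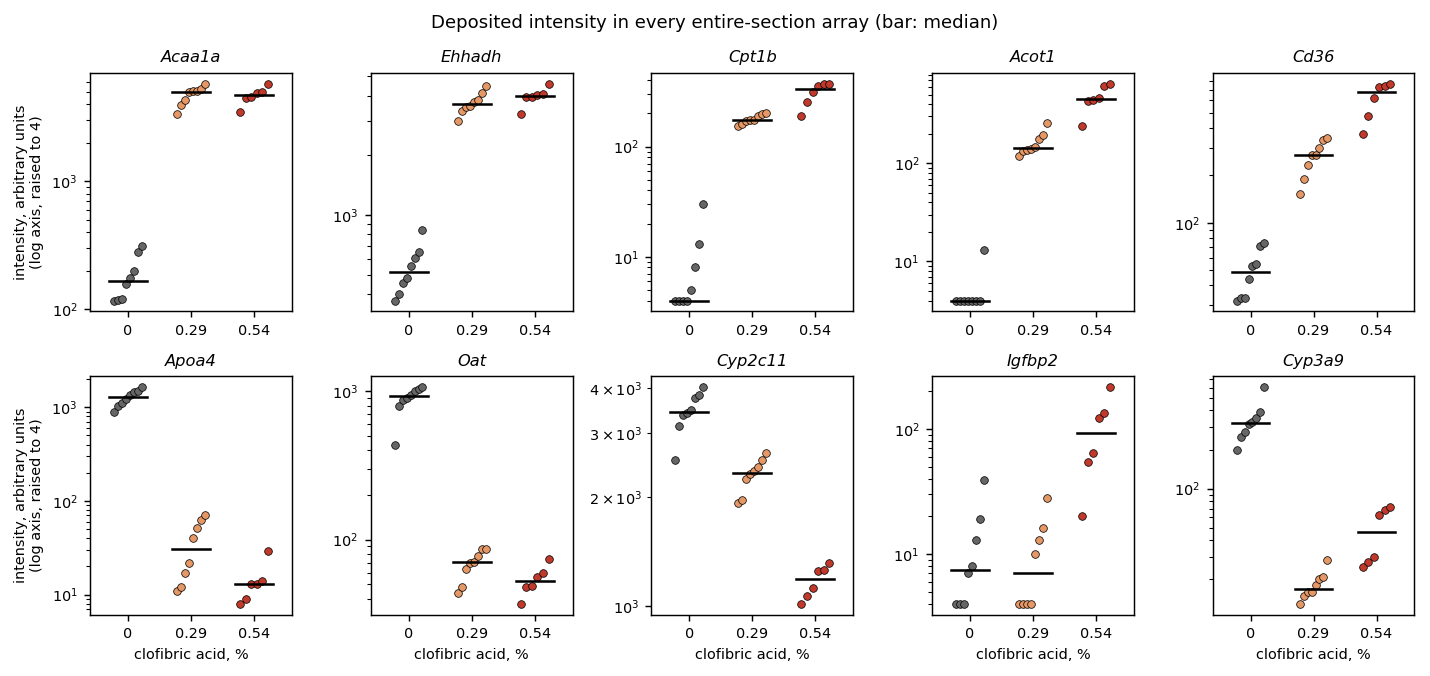
Deposited intensity on every entire-section array at 0, 0.29 and 0.54% CA, on a log axis with values under 4 drawn at 4, for 10 named genes, with bars at the medians. The medians of Acaa1a are 4999 and 4700 at the lower and higher dose, and those of Cyp2c11 are 2338 and 1188.

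Stained sections gave the same contrast against their own 8 controls, and the 0.54% CA effect there was set against that in entire sections in 1 model. Of 8191 probe sets 11 differed, 0.134%. The named ones were Scd2, Msmo1, Dio1 and 1 of the 2 Acot2 probe sets (y09333_at). In stained sections Dio1 had mean intensities of -23 in control and -24.4 in treated samples, Msmo1 of -19.2 and -4.4, Acot2 on that probe set of -9.75 and -53.4 and Scd2 of -4.5 and 3.6. All lie below the floor, so no effect could be measured there. The count of 11 rested on few arrays. It was 20 without entire control array 7, 20 without stained control array 4 and 7 without stained array 1 at 0.54% CA. It was 24 without the entire-section arrays of high GAPDH ratio, a setting that dropped no stained array. Stained arrays had GAPDH ratios of 4.66 to 18.85 in control and 2.59 to 11.57 at 0.54% CA. In entire sections these ran from 1.25 to 6.25 and from 1.25 to 6.49, so the preparations compared here differed in this ratio. For Acaa1a the log2 change was 5.46 in stained and 5.38 in entire sections, for Acot1 6.68 and 6.42, for Ehhadh 5.04 and 3.37, for Oat -2.89 and -4.17 and for Apoa4 -5.13 and -6.74. The test of the difference did not pass for any of these 5, with adjusted p-values from 0.42 for Ehhadh to 0.97 for Acaa1a.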

How the data were processed

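Total RNA from rat liver sections was measured on 1-colour arrays, and the deposited table holds 1 whole-number intensity per probe set and array, negative values included. How the authors scaled and background-corrected those intensities is not given in the sources used here. Groups came from the source labels.

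From the deposited intensities, 59 control probe sets were left out, values below 4 (the 10th percentile of positive intensities) were raised to it, log2 was taken and all 52 arrays were quantile-normalized. Probe sets above the floor on at least 1 of the 22 entire-section arrays (7804 of 8740) were fitted with lmFit and eBayes of limma 3.58.1 in R 4.3.3, two-sided, with Benjamini-Hochberg adjustment. The stained difference was fitted on 42 entire and stained arrays, including those at 0.29% CA. Exact permutation tests used SciPy 1.17.1. On data simulated for the 0.54% comparison over 7804 probe sets the fit recovered 76% of 2-fold and 97% of 4-fold changes, and 2.81% of its calls were false. In that simulation 200 probe sets well above the floor were changed, and noise was drawn independently for each probe set and array. The real data have more changed probe sets, dim ones among them, and arrays that stood apart. The simulated rates are therefore not the power or false-call rate of the real comparison.

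Members and gene lists were chosen with earlier results of these data known. The rule first written took names only from a table pairing probe sets or accessions with genes. No such table was given, and the names used here come from recalled GenBank records, a departure from that rule. Names of 6 accessions were removed after their values were seen and then restored, so none was left out for its value. Named probe sets are, per list, the called ones with the largest change, the largest rises and falls of all, and the members needed to describe each list. List members that were not called were picked for their known roles with their values in view. Alternatives covered normalization, floor, filter, samples, weights, the variance prior, fold size, replicate block, RNA quality and leaving out each array. The number of arrays limits the precision. Some genes of the lists are not reported here, though the lists' counts include them.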

Additional observations from a re-analysis of the deposited data

Results flagged for a closer look

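Dixon's test for a sample far from the rest of its group was applied to 224 groups of values, and 35 stood apart, 28 of them intensities of genes. Chance alone gives about 1 in 20 groups. At 0.54% CA, array 6 held 12 of the 35 and array 5 held 2, and in the control group array 7 held 12. Array 6 had the lowest trimmed mean (91.9) and the lowest correlation with its group (0.923). Control array 7 had a correlation of 0.941, a GAPDH 3′/5′ ratio of 6.25 and an actin ratio of 6.43, and array 5 at 0.54% CA had ratios of 6.49 and 7.66.

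On array 6 at 0.54% CA the intensities that stood low were Psma3 at 221, Thrsp at 790, Btg1 at 572, Lipc at 411, Clec4f at 74, Ddc at -58, Pdia4 at 224, Hspa9 at 881 and Pfkfb1 at 198, and Apoa4 stood high at 29. On control array 7 Acat1 at 636, Rgn at 1408, Psma3 at 400, Clec4f at 270, Cyp4a1 at 1620, Cyp3a9 at 604 and Hspd1 at 1720 stood high, and Pc at 359 and P4hb at 818 stood low. Other control values apart from their group were Acot1 at 13 and Fcgr2b at 150 on array 8, Acsl3 at 21 on array 2, Cpt1b at 30 and Btg1 at 782 on array 5 and Oat at 432 on array 4. At 0.54% CA, Decr1 was at 424 on array 3, Dusp1 at 222 on array 1 and Ephx2 at 870 on array 4.

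The 0.54% CA effect differed between stained and entire sections by the test of the difference for Msmo1 (-2.67, adjusted p = 0.035), Scd2 (-2.86, adjusted p = 4.2e-04) and Dio1 (3.55, adjusted p = 0.0021) in the limma fit. Each was below the floor in both stained groups.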

How the results depend on the processing

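Of 109 named changes recomputed under the alternatives, 2980 of 3149 values kept direction and call, 169 lost the call and 0 reversed, and the losses fell on 29 genes. These 109 were picked as called and largest in change, and many alternatives only left out 1 array, so this stability is partly built in. Over all 263 named calls the deposited scale alone lost 67, and 1 had the opposite sign there. The count of 1236 against control was 790 with all 15 groups in the fit, 1933 with array quality weights and 558 with a 2-fold minimum, and 1052 to 1380 when 1 array was left out. The dose count of 79 was 34 on the deposited scale, 132 with a floor of 20, 27 with only the arrays of the compared groups, 41 with all groups, 331 with weights and 32 with a 2-fold minimum, and 33 to 118 when 1 array was left out. The stained difference of 11 was 30 with a floor of 20, 22 with weights and 6 when the GAPDH ratio entered as a covariate. It was 24 without the entire-section arrays of high ratio and 25 without entire-section array 6 at 0.54% CA as well. The latter alternative was chosen after seeing the data. With 1 array left out the count was 7 to 20. With a filter at the 75th percentile of intensity limma called 0 of 2328, with 294 at an unadjusted p under 0.05. The causes were not tested. List counts stayed within 1.5 times in 645 of 718 cases. On the deposited scale those for chaperones went from 9 to 3, for glucose from 8 to 3 and for nuclear receptors from 5 to 2.

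Pairing by replicate number was examined only for numbers 1 to 6, between control arrays and higher-dose arrays of entire sections. Correlations of their same-numbered deviations ran from -0.161 to 0.157, which showed no clear pairing of these arrays. Pairing of the lower-dose and stained arrays was not tested. With the replicate block the counts were 1393, 211 for dose and 11 for the stained difference. Intensities under about 4 carry no order, which limits folds of dim genes.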

Other observations

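Some of the clearest changes lay in probe sets that carry no name here. The probe set m38759_at was -13 to -2 on control arrays and 140 to 301 at 0.54% CA, a log2 change of 5.42 ± 0.10 (SE, adjusted p = 1.5e-19 in the limma fit). It was higher still at 0.29% CA, 264 to 426, and the difference between the doses was -0.64 (adjusted p = 0.0024). The probe set rc_aa875269_at was -6 to 9, 39 to 111 and 147 to 558 at 0, 0.29 and 0.54% CA, and the higher dose exceeded the lower by 2.24 (adjusted p = 9.2e-06). Among the falls, x14552_at was 249 to 469 in control liver, 56 to 242 at 0.29% and 1 to 30 at 0.54% CA, a difference between doses of -2.76 (adjusted p = 1.6e-04). The probe set rc_ai176460_s_at fell by 4.15 with overlapping groups, 540 to 3477 and 17 to 646. These 4 are the furthest rises and falls among unnamed probe sets and were chosen after their values were seen.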
